A study of Homo sapiens with 6 samples.

Results

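The 200 noncoding genes with the most reads in K562 cells were examined in 3 control and 3 hyperoside libraries. They were chosen by their mean CPM (a gene's counts divided by the library total and multiplied by 1000000) over the 6 libraries, from 7818 ranked rows among 7853 noncoding rows and 24960 rows in all. The rows not ranked were 28 with SNHG symbols, hosts of small nucleolar RNAs, and 7 other named genes. Long noncoding RNAs (lncRNAs) are transcribed mostly by RNA polymerase II and are often spliced and polyadenylated, but they are not translated into known proteins. Some build nuclear bodies, some bind proteins or microRNAs in the cytoplasm, and many lie antisense to a coding gene, or diverge from its promoter, with no assigned role. Their levels are often particular to a cell type, and several were first described in leukemia or other tumors.

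K562 is an established human chronic myeloid leukemia line, and each library was made from total RNA of these cells. Hyperoside is a plant flavonol glycoside, which the hyperoside group received and the control group did not. The labels give neither the dose nor the time before RNA extraction, and they do not say that replicates were separate cultures, so p-values measure only the spread between these libraries, which may be technical. The labels name bone as the tissue, but all 14 erythroid and megakaryocytic markers examined were above 1 CPM in every library, with a summed level of 5796 to 6932 CPM in the control and 4964 to 6024 CPM in the hyperoside libraries. Of the osteoblast markers BGLAP, SP7, IBSP and RUNX2, only RUNX2 was above 1 CPM in every library. Of the other lists, CD3D of 4 T cell, EPCAM of 4 epithelial and COL1A1 and COL1A2 of 4 fibroblast markers passed this level. The summed T cell markers were at 29.5 to 35.4 CPM in control and at 40.7 to 45.9 CPM in hyperoside libraries, and their part in the results was not tested. Gene counts summed to between 35613283 and 36754725 per library, with 18754 to 19191 genes detected in the control and 19542 to 19625 in the hyperoside libraries. In bulk RNA, fewer cells with a transcript and less transcript per cell cannot be told apart.

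The level of the 200 members was steep at the top and flat below. NEAT1 alone held 21.5% of their summed CPM, the 10 highest held 48.9%, and 12 members held 50% of it. Mean levels ran from 10.7 to 2030 CPM with a median of 19.4, and 109 members lay between 10 and 20 CPM. At the edge of the list, LINC00656 and KAZN-AS1 were the last 2 members, both at 10.66 CPM, while LINC01011 and BAIAP2-DT, both at 10.62 CPM, were the first 2 rows left outside. LINC01011 lay at 16.8, 13.9 and 13.9 CPM in control and at 5.92, 5.93 and 7.26 CPM in hyperoside libraries, and BAIAP2-DT at 7.35, 7.19 and 7.33 against 12.9, 15.6 and 13.3 CPM. The gap at the edge was thus smaller than the spread of a single gene over libraries. Every member had at least 197 counts in every library, so all 200 passed the filter on low counts, and the median coefficient of variation of a member was 9.15% in the control and 7.75% in the hyperoside libraries.

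Of the 189 members found in the RefSeq table by gene number, 184 are listed there as lncRNA, 3 as transcribed pseudogenes and 2 (LOC105374298 and LOC112268458) as protein coding, although the deposited table calls these 2 noncoding. Among the 154 members found in GENCODE 29, 134 had more than 1 merged exon block and 20 had a single block. NEAT1, MALAT1 and NORAD were single-block genes. GENCODE 29 lists NFE4 and KRT10-AS1 as protein coding, and LOC730101, EMC3-AS1 and several further members as transcribed pseudogenes. The members' gene length in the deposited tables had a median of 2796 bases (545 to 91671), against 4173 bases for tested coding genes. Chromosome 7 carried 23 of the 189 placed members (12.2%, against 4.76% of all tested genes).

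Per length, the order of the members differed from the order by reads. By FPKM (CPM divided by gene length in kilobases), the highest mean level was that of EVADR, an RNA first described in adenocarcinomas that derives from an endogenous retroviral insertion, at 193, 187 and 200 FPKM in control and 113, 95.6 and 128 FPKM in hyperoside libraries. TMEM132D-AS1 followed with 142, 137 and 131 against 142, 143 and 167 FPKM, so the order of this pair was reversed between the groups. MALAT1 (mean 91.6 FPKM), NEAT1 (89.2), NORAD (82.5) and B3GALT1-AS1 (81.8) came next and their library values overlapped one another. KCNQ1OT1, the longest member with 91671 bases in the table, had the lowest mean FPKM of all members, 0.469 to 0.635 FPKM in control and 0.213 to 0.263 FPKM in hyperoside libraries. Of the 200 members, 131 would also be among the 200 highest by FPKM.

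**Figure D1:**
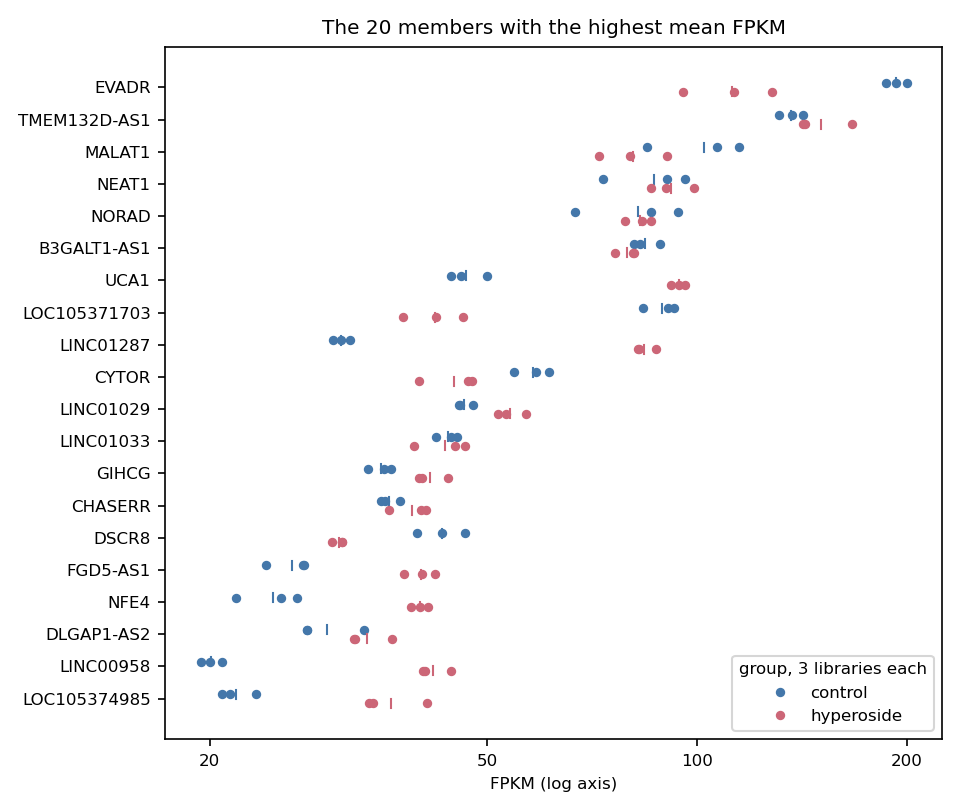
FPKM (log axis) of the 20 members with the highest mean FPKM, with a point per library, a bar at each group's mean, and control and hyperoside drawn in separate colours (3 libraries each). EVADR lies highest in control, at 187 to 200 FPKM, and UCA1, LINC01287 and LOC105371703 are among those whose groups do not overlap.

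The comparison of hyperoside with control asked which genes changed in the treated cells. With edgeR's quasi-likelihood test over all 15095 tested genes, 71 members rose and 55 fell at a Benjamini-Hochberg adjusted p under 0.05, and 74 were not called. This was 35.5% of the members higher, where 22.1% of all tested genes were called higher, and 27.5% lower, where 23.2% were called lower. The members were chosen for high counts, while all tested genes include rows with far lower counts. The part of this in the shares was not tested. As differentially expressed genes (DEGs), which also needed a change of more than 2-fold, 19 members rose (9.50%, against 6.43% of all tested genes) and 10 fell (5%, against 3.76%). The hyperoside libraries lay wholly above the control libraries for 78 members (39.0%, against 27.1% of all tested genes) and wholly below for 58 members (against 27.3%). The median log2 fold change (hyperoside over control) of the members was 0.09, with quartiles at -0.32 and 0.50, and that of all tested genes was 0.00. The other tested noncoding genes, 2100 in number, had a median of 0.20 with 18.3% called higher and 10.4% lower, and larger DEG shares than the members, 13% higher and 6.38% lower, and the 12795 tested coding genes had a median of -0.02 with 22.5% and 25.3%.

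The choice of members bore on these counts. A ranking by the 3 control libraries alone kept 179 of the 200 and gave 10 DEGs higher and 22 lower, with 53 called higher and 74 lower and a median of -0.07. The 21 members that dropped out included 18 called higher, 9 of them DEGs, and the 21 rows that came in included 19 called lower, 12 of them DEGs. A ranking by the hyperoside libraries alone gave 26 DEGs higher and 4 lower, and a ranking by FPKM gave 14 of each with a median of -0.04. By the mean of log2 CPM, 99% of the members were shared and the DEG counts were 17 and 10. The surplus of higher over lower members thus changed with the ranking, and it is given as a description. The 50 members with the highest mean CPM had 25 called higher and 12 lower. The next 3 groups of 50 had 15 and 16, 15 and 15, and 16 and 12. Of all tested genes, 22.1% were called higher and 23.2% lower. These groups were cut by the same mean CPM that chose the members, hyperoside libraries included. How far this ranking made the surplus in the first group was not tested.

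**Figure D2:**
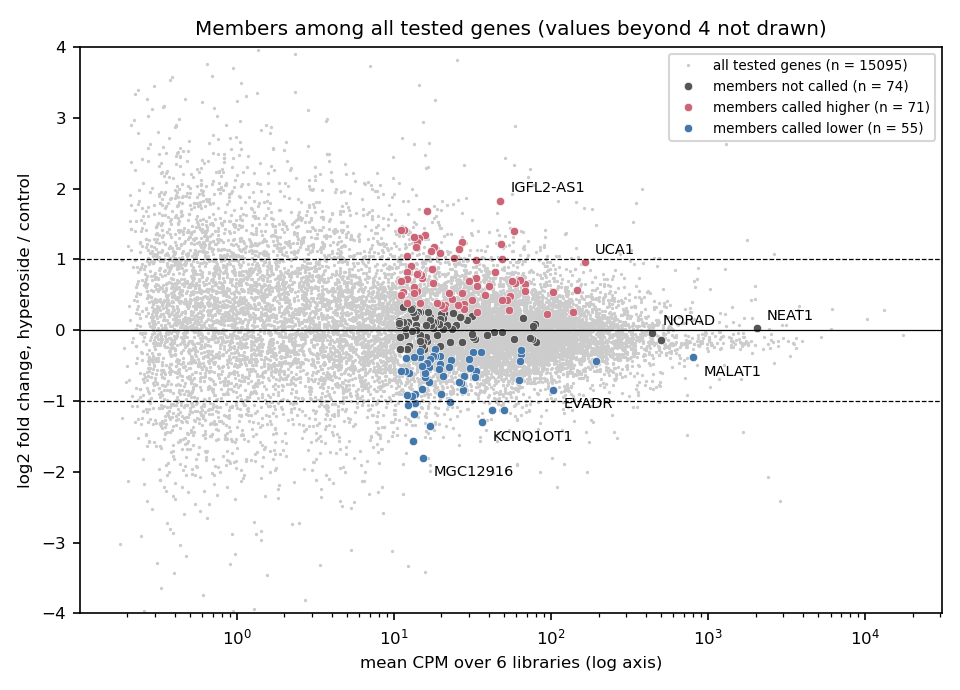
Log2 fold change of hyperoside over control against mean CPM (log axis) for all 15095 tested genes in grey and the 200 members in colour by call, with dashed lines at a 2-fold change. Calls in both directions occur down to the lowest levels, the most abundant higher call is UCA1 and the most abundant lower call is MALAT1, and NEAT1 and NORAD lie near 0.

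**Figure D3:**
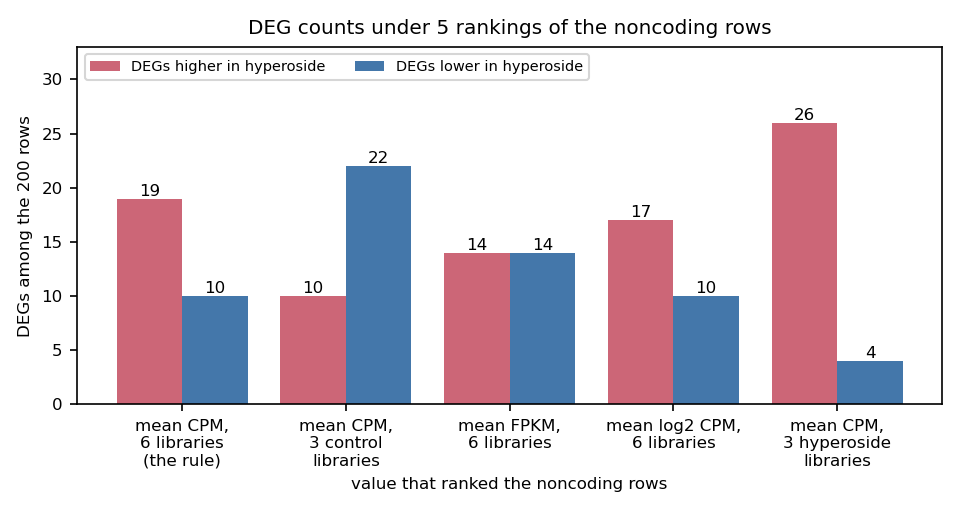
Bars give the number of DEGs higher and lower in hyperoside among the 200 highest noncoding rows under 5 ways to rank them. The counts run from 10 higher and 22 lower with the control libraries to 26 higher and 4 lower with the hyperoside libraries.

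The members held 0.833%, 0.947% and 0.968% of all gene counts in the control libraries and 1.01%, 0.977% and 0.931% in the hyperoside libraries. The means of 0.916% ± 0.0727 and 0.973% ± 0.0409 (SD, n = 3 each) differed by 0.0572 percentage points, which did not pass a two-sided exact permutation test (p = 0.400, where the smallest possible p is 0.1). The groups thus overlapped in this share, and the difference was 0.0157 without control 1 and 0.0377 without hyperoside 1. As a share of summed FPKM, which weights short genes more, the difference was 0.0569 percentage points (exact permutation p = 0.1, the smallest possible). All noncoding rows together held 1.76% ± 0.0971 in the control and 2.03% ± 0.0614 in the hyperoside libraries, with every hyperoside library above every control library (exact permutation p = 0.1, the smallest possible).

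Members on the list of nuclear lncRNAs went different ways. NEAT1, the RNA scaffold of paraspeckles (GRCh38 chr11:65422798-65445540), had 1743, 2086 and 2181 normalized CPM (CPM after TMM scaling of the library totals) in control and 2201, 2021 and 1935 in hyperoside libraries. The groups overlapped, and the log2 fold change of 0.03 (SE 0.08, adjusted p = 0.750) took the other sign when control 1 or hyperoside 1 was left out (-0.05 and -0.02). Its neighbour MALAT1, an RNA of nuclear speckles that begins 52198 bases further along, had 778, 1022 and 934 against 777, 691 and 630 normalized CPM. MALAT1 fell by 0.38 on the log2 scale (SE 0.09, adjusted p = 0.00260), with all hyperoside libraries below all control libraries, although its lowest control and highest hyperoside libraries were almost level. On the log2(FPKM + 1) scale with limma its adjusted p was 0.0562. KCNQ1OT1, an imprinted RNA transcribed within KCNQ1 that silences neighbouring genes on the same chromosome copy, fell from 45, 58.9 and 52.4 to 23.5, 21 and 19.4 normalized CPM (log2 fold change -1.29, SE 0.11, adjusted p = 5.12e-08). KCNQ1 itself had at most 10 counts in any library and was not tested. LINC-PINT, a p53-induced RNA, fell as well, from 19.7, 19.6 and 16.6 to 9.97, 6.7 and 8.03 normalized CPM (log2 fold change -1.18). PVT1, which lies beside MYC, rose from 54.8, 44.6 and 37.5 to 60.9, 68.9 and 61.7 normalized CPM (log2 fold change 0.48, SE 0.11, adjusted p = 0.00180). Of the 5 members on this list, 1 rose and 3 fell, where 22.1% and 23.2% of all tested genes did.

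Among cytoplasmic RNAs, UCA1 rose most. UCA1, first described in bladder carcinoma, had 121, 107 and 102 normalized CPM in control and 213, 209 and 220 in hyperoside libraries, a change just under the 2-fold limit for a DEG (1.95-fold, adjusted p = 2.42e-08). NORAD, an RNA that guards genome stability, had 373, 464 and 500 against 448, 438 and 418, and its log2 fold change of -0.04 (SE 0.09, adjusted p = 0.761) changed sign in 5 of 14 alternative settings, which include the upper-quartile scaling. OIP5-AS1, known as cyrano and for its site for miR-7, fell from 196, 221 and 243 to 165, 162 and 164 normalized CPM (log2 fold change -0.43, adjusted p = 2.62e-04), and the hyperoside libraries were closely spaced. CYTOR had 79.1, 73.4 and 67.3 against 56.5, 48.5 and 58.3 (log2 fold change -0.43, adjusted p = 8.84e-04), while MIR4435-2HG, which holds a near-identical copy of it, was not called (log2 fold change -0.16, adjusted p = 0.118), and the split of reads between these copies is uncertain. DANCR had a log2 fold change of -0.02 (adjusted p = 0.913). Of these 5 listed cytoplasmic lncRNAs, 1 rose and 2 fell, again beside 22.1% and 23.2% of all tested genes.

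Further members among the 10 highest by reads were FGD5-AS1, BCAN-AS1, LINC01000 and EVADR. FGD5-AS1 rose from 110, 121 and 119 to 172, 181 and 165 normalized CPM (1.48-fold, adjusted p = 6.13e-06). FGD5, the coding gene in its symbol, lies on the other strand and had at most 2 counts in any library. The exons of FGD5-AS1 also overlap those of NR2C2, a further coding gene on that strand. LINC01000 rose from 86, 85.5 and 80.4 to 125, 125 and 116 normalized CPM (1.46-fold). EVADR fell from 136, 127 and 134 to 74.5, 63.3 and 85.1 normalized CPM (log2 fold change -0.84, SE 0.09, adjusted p = 1.14e-06). BCAN-AS1 was near the threshold, with 137, 107 and 132 against 142, 162 and 144 (log2 fold change 0.25, adjusted p = 0.0301), and lost its call without control 2 (adjusted p = 0.214) or hyperoside 2 (0.155) and with a replicate block (0.0522).

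The DEGs among the members mostly had LINC or LOC symbols, which mark intergenic RNAs and loci without a name of their own. By symbol class, 8 of 51 LINC genes (15.7%), 4 of 39 LOC genes (10.3%) and 5 of 54 antisense genes (9.26%) rose as DEGs. So did 1 of 17 divergent transcripts (5.88%) and 1 of 31 genes with a name of their own (3.23%). Those that fell as DEGs were 4 LINC (7.84%), 3 LOC (7.69%), 1 antisense (1.85%), 1 of 2 intronic or overlapping and 1 own-name gene (3.23%). Among all tested genes, 6.43% rose and 3.76% fell as DEGs. Differences between the classes were not tested. IGFL2-AS1 had the largest rise, from 19.4, 21.9 and 20.5 to 75, 67.8 and 77.2 normalized CPM (3.56-fold, log2 fold change 1.83, SE 0.09, adjusted p = 9.09e-11). Its coding neighbour IGFL2 had at most 10 counts in a library and was not tested. LOC101928126 rose from 9.33, 7.78 and 5.71 to 23, 25.9 and 24.3 normalized CPM (3.21-fold), next to LINC00649, which lies 5196 bases away on chromosome 21 and also rose (log2 fold change 0.79, adjusted p = 1.33e-04). LINC01287 rose from 33.5, 30.6 and 31 to 81.2, 81.7 and 87.2 (2.63-fold, adjusted p = 8.41e-10). In each of these genes the lowest hyperoside library was more than 2 times the highest control library. LOC105373195 (2.33-fold), LOC105379392 (2.22-fold), LINC00958 (2.02-fold) and LINC02700 (2.02-fold) were further DEGs with groups far apart. CHROMR, an RNA tied to cholesterol homeostasis in primates, rose from 10.1, 10.1 and 12.6 to 27, 24 and 23 normalized CPM (2.26-fold, adjusted p = 4.63e-07). LINC02154 varied most among the DEGs in the control group, with 9.7, 17.8 and 20.1 normalized CPM, against 40.5, 31 and 41.1.

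MGC12916 had the largest fall, from 26.5, 24.5 and 21.2 to 6.35, 8.74 and 5.59 normalized CPM (0.287-fold, log2 fold change -1.80, SE 0.15, adjusted p = 4.11e-08). LINC02432 fell from 20, 22.3 and 16.8 to 7.41, 6.24 and 6.34 (0.338-fold) and LOC107984658 from 22.4, 27 and 24.2 to 10.9, 9.12 and 8.58 (0.388-fold). In each of the 3 genes every hyperoside library lay below every control library. LOC730101 fell from 54.8, 61.9 and 57 to 26, 28.4 and 24.9 normalized CPM (0.457-fold, adjusted p = 2.82e-08), and LOC105371703 from 72.7, 64.9 and 70.9 to 31.5, 28.5 and 35.1 (0.456-fold, adjusted p = 3.61e-08). LINC02864 (log2 fold change -1.01), LINC01355 (-1.05) and ZNF436-AS1 (-1.03) completed the group with LINC-PINT and KCNQ1OT1. LINC01355 and ZNF436-AS1 lie 83453 bases apart on chromosome 1. All 29 DEGs stayed called at an adjusted p under 0.05 in all 14 alternative settings, and 100 of the 126 called members kept their call and direction whichever library was left out.

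**Figure D4:**
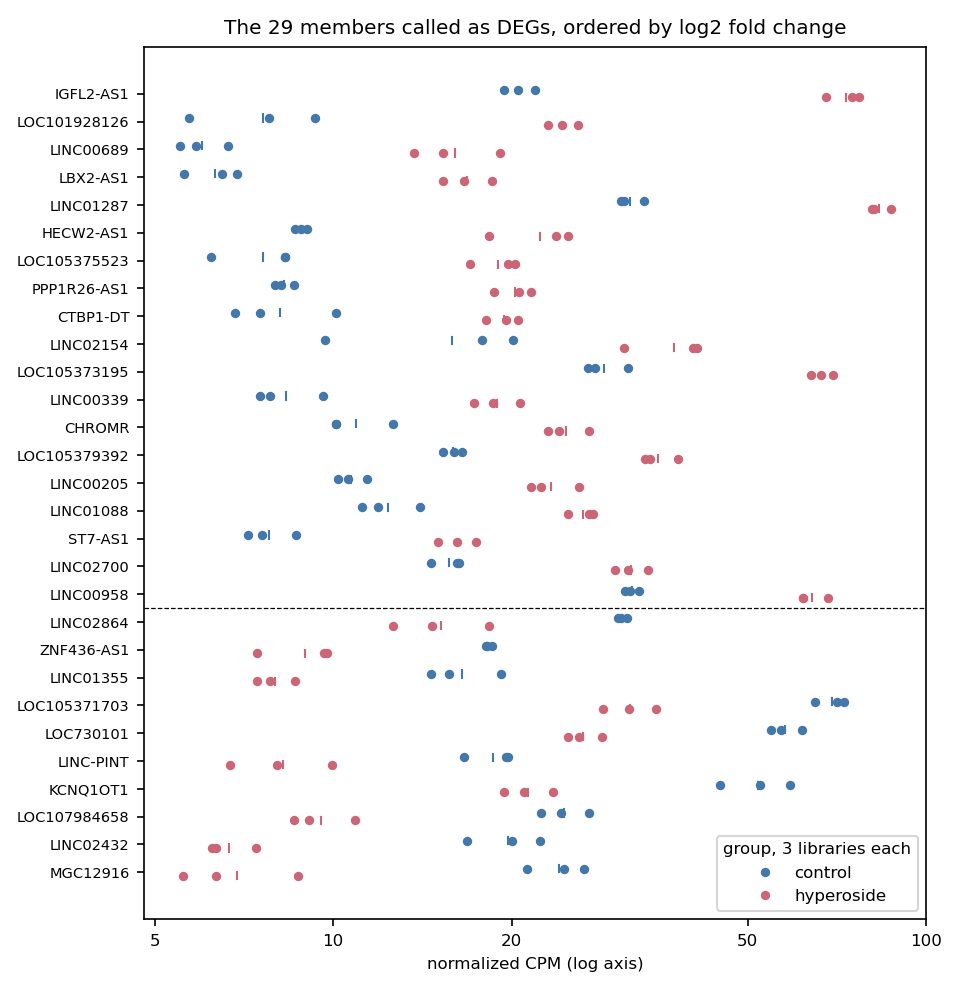
Normalized CPM (log axis) of the 29 members called as DEGs, with a point per library and a bar at each group's mean, control and hyperoside in separate colours. The 19 genes above the dashed line rose and the 10 below it fell, and in none of them do the groups overlap.

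RefSeq promoters (250 bases before to 50 after a start, build GRCh38.p14) were found for 127 members, 20 of them DEGs. They were searched on both strands for the TATA box (TATAAA), the CCAAT box, the E-box (CACGTG), the composite C/EBP-ATF element (TGATGNAA) and the antioxidant response element (TGACNNNGC). CCAAT was present in 41.1% of the members' 151 promoters and in 34.6% of all 35116 promoters, and TATAAA in 6.62% and 11.5%. CACGTG was present in 8.61% and 7.26%, TGATGNAA in 2.65% and 3.62%, and TGACNNNGC in 17.9% and 13.3%. In the 11 promoters of 7 genes that fell as DEGs, TATAAA was present in 27.3%, CCAAT in 54.5%, CACGTG in 18.2%, TGATGNAA in 9.09% and TGACNNNGC in 27.3%. In the 14 promoters of 13 genes that rose as DEGs, CCAAT was present in 28.6% and TGACNNNGC in 14.3%, and the other motifs in none. With so few promoters these shares are descriptions. The promoters of 3 genes that fell are shown because they hold the most matches among the DEG members, with each match on either strand in capitals, and they were chosen after the matches were seen. That of LOC105371703 (chr17:27089192-27089491, minus strand) held 6 CCAAT boxes in both orientations, as many as or more than were found in only 43 promoters of the table (0.122%), and a TATAAA 42 bases before the start. That of LINC01355 (chr1:23285469-23285768, minus strand) held 3 matches to TATAAA and 2 CCAAT boxes, and that of LOC730101 (chr6:52664151-52664450, plus strand) held 2 CCAAT boxes and a TATAAA at the start itself.
LOC105371703: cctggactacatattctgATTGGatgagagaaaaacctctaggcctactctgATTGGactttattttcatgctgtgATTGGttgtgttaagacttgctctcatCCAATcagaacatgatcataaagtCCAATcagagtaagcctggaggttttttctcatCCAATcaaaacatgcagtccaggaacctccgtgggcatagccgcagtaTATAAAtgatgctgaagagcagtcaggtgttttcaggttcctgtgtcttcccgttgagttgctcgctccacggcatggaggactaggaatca
LINC01355: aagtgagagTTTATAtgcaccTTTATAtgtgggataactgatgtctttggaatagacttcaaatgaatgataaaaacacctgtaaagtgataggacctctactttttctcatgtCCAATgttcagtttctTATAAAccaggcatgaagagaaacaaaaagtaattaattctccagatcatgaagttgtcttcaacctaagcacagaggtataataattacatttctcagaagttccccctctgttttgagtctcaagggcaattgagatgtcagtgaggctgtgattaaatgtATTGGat
LOC730101: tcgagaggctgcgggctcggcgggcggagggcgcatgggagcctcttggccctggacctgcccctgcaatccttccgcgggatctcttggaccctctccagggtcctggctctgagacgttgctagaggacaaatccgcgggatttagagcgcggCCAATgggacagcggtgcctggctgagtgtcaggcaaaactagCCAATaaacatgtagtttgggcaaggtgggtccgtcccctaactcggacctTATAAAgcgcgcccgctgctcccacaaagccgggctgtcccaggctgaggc

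Host transcripts of microRNAs also moved in both directions. A host is a longer transcript whose span holds a microRNA hairpin, and the microRNAs themselves were not measured in these libraries. RefSeq hairpins with 20 mature sequences were found within 10 members, and no seed (bases 2 to 8) was shared between the hairpins found. The search may not have covered every member, so a member without a hairpin found, such as PVT1, may still hold one. MIR223HG, host of the myeloid microRNA miR-223, rose from 38.8, 26.5 and 29.6 to 41.5, 48 and 44.2 normalized CPM (log2 fold change 0.50, SE 0.12, adjusted p = 0.00237), and control 1 lay close to the hyperoside libraries. MIR210HG, host of the hypoxia-induced miR-210, rose from 7.93, 10.1 and 7.84 to 16.2, 14 and 15.6 (log2 fold change 0.82, adjusted p = 9.12e-05). LOC646762, which spans a miR-550a hairpin, rose from 55.7, 55.2 and 52.9 to 79, 81.8 and 81.3 (1.48-fold). STAG3L5P-PVRIG2P-PILRB, a readthrough transcript that spans the miR-6840 hairpin, rose from 25.9, 27.9 and 25.7 to 41.4, 42.8 and 38 (1.54-fold), but its exons overlap those of PILRA and PILRB on the same strand, so its reads are uncertain. In all 4 hosts every hyperoside library lay above every control library. MIR600HG fell from 41.5, 42.3 and 36.4 to 27.1, 26.9 and 26.4 (log2 fold change -0.58, adjusted p = 6.40e-05). It overlaps an exon of STRBP on the same strand, so its reads are uncertain too. MIR23AHG, host of the cluster of miR-23a, miR-27a and miR-24-2, fell from 14.8, 13.6 and 12.1 to 11.9, 8.8 and 10.2 (log2 fold change -0.39, adjusted p = 0.0273). The groups of these 2 hosts did not overlap either, though those of MIR23AHG nearly touched. DLEU1, from a region deleted in lymphocytic leukemia, was on the list of hosts, but no hairpin was found for it. It was not called (log2 fold change -0.17, adjusted p = 0.215). Mature sequences from the hosts that moved are given with the seed in capitals, since they show which microRNAs lie within each span. The hairpins lie on the host's strand for MIR210HG, MIR600HG and STAG3L5P-PVRIG2P-PILRB, and the strand of the other hosts that moved was not checked.
miR-223-3p (MIR223HG, higher): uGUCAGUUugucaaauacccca
miR-210-3p (MIR210HG, higher): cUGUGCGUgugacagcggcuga
miR-550a-3p (LOC646762, higher): uGUCUUACucccucaggcacau
miR-6840-3p (STAG3L5P-PVRIG2P-PILRB, higher): gCCCAGGAcuuugugcggggug
miR-600 (MIR600HG, lower): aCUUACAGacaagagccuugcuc
miR-23a-3p (MIR23AHG, lower): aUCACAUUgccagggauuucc
miR-27a-3p (MIR23AHG, lower): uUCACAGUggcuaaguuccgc
miR-24-3p (MIR23AHG, lower): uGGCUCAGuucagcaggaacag

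Of the 9 members on a list of lncRNAs described in blood cells or leukemia, 3 rose (33.3%, against 22.1% of all tested genes) and 4 fell (44.4%, against 23.2%). UCA1, PVT1 and MIR223HG rose, and MALAT1, CYTOR, CCDC26 and CRNDE fell, the last from 15.7, 23.5 and 23.1 to 13.6, 12.4 and 11.6 normalized CPM (log2 fold change -0.73, adjusted p = 3.92e-04). LOC105371275, which lies 25082 bases from CRNDE on chromosome 16, fell by 0.28 on the log2 scale (adjusted p = 0.00903). GATA2-AS1, beside the gene of the hematopoietic transcription factor GATA2, rose from 9.81, 11.9 and 11.8 to 20.4, 19.1 and 16.5 normalized CPM (log2 fold change 0.74), and GATA2 itself rose less (0.33, adjusted p = 0.00134). Of 5 members on a list of p53 or stress lncRNAs, PVT1 and MIR210HG rose, LINC-PINT fell, and NEAT1 and NORAD were not called. KCNQ1OT1 was the single member on the imprinted list, and none of the 32 small structural RNA genes listed was a member.

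The direction of antisense and divergent members was compared with that of the coding gene in their symbol, and no common direction was seen. Antisense RNAs are read from the strand opposite a coding gene, and divergent transcripts start near its promoter and run the other way. Both genes were tested in 62 of 70 pairs, and their log2 fold changes had the same sign in 25, with Pearson's r of -0.09 and Spearman's rho of -0.10 across the 62 pairs, which share libraries and are not independent. Both genes were called in 15 pairs, of which 6 rose together, 2 fell together and 7 went opposite ways. The member alone was called in 21 pairs, the coding gene alone in 15 and neither in 11. Among the 17 divergent members 1 was called higher and 7 lower, and their median log2 fold change was -0.15, while among the 54 antisense members 21 were called higher and 13 lower, with a median of 0.12. Of all tested genes, 22.1% were called higher and 23.2% lower, and the difference between the classes was not tested.

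Pairs that went opposite ways included HECW2-AS1, which rose from 8.62, 9.03 and 8.84 to 23.8, 18.3 and 24.9 normalized CPM while HECW2, a ubiquitin ligase gene, fell from 3.78 ± 0.766 to 0.848 ± 0.238 (SD, n = 3 each; log2 fold change -2.15). ZNF436-AS1 fell from 18.1, 18.2 and 18.5 to 9.65, 7.43 and 9.77, and the zinc finger gene ZNF436 rose (log2 fold change 0.67, adjusted p = 2.89e-05). KMT2E-AS1 fell (-0.61) and the chromatin regulator gene KMT2E rose (0.44), OTUD6B-AS1 and PROSER2-AS1 rose by 0.52 each while OTUD6B and PROSER2 fell by 0.63 and 0.59, and HSD17B1-AS1 rose by 0.67 while HSD17B1 fell by 0.43. At MRPL20, a mitochondrial ribosomal protein gene that rose by 0.47, the antisense member MRPL20-AS1 rose by 0.30 and the divergent member MRPL20-DT fell by 0.83. Members on both sides of this gene thus differed in direction, but the exons of MRPL20-AS1 overlap those of MRPL20. Whether its rise holds reads of MRPL20 was not tested.

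Pairs that moved together included LBX2-AS1 with LBX2 (log2 fold changes 1.41 and 1.42) and ST7-AS1 with ST7 (1.05 and 0.99), both with exons that overlap the coding gene's. NNT-AS1 with NNT (0.55 and 0.41) and VPS9D1-AS1 with VPS9D1 (0.70 and 0.39) overlap in exons too, and so does GARS1-DT with GARS1, which fell together (-0.38 and -0.81). UBA6-DT and UBA6 fell together (-0.48 and -0.58) without such overlap. Exon overlap also occurred in pairs that went opposite ways. Of 9 pairs with overlapping exons and both genes called, 6 had the same sign and 3 opposite signs (ZNF436-AS1, KMT2E-AS1 and PROSER2-AS1). Of 4 such pairs without overlap, 2 had the same sign and 2 opposite signs. The use of strand in counting is not given in the sources used here, so reads from overlapping exons on opposite strands cannot be told apart. TP73, a p53 family gene, rose from 8.87 ± 0.430 to 31.5 ± 1.35 normalized CPM (SD, n = 3 each; log2 fold change 1.83, adjusted p = 5.57e-10), whereas TP73-AS1, whose exons overlap it, was not called (-0.11, adjusted p = 0.357). PPP1R26-AS1 (2.46-fold) and CTBP1-DT (2.38-fold) rose beside coding genes that were not called (log2 fold changes 0.18 for PPP1R26 and 0.06 for CTBP1). Of the 54 members that overlap a coding exon on the opposite strand, 16 rose and 18 fell, and of the 91 without any coding exon overlap, 32 rose and 20 fell. These shares were 29.6% and 33.3% for the former and 35.2% and 22.0% for the latter, against 22.1% and 23.2% of all tested genes, and the difference between them was not tested.

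**Figure D5:**
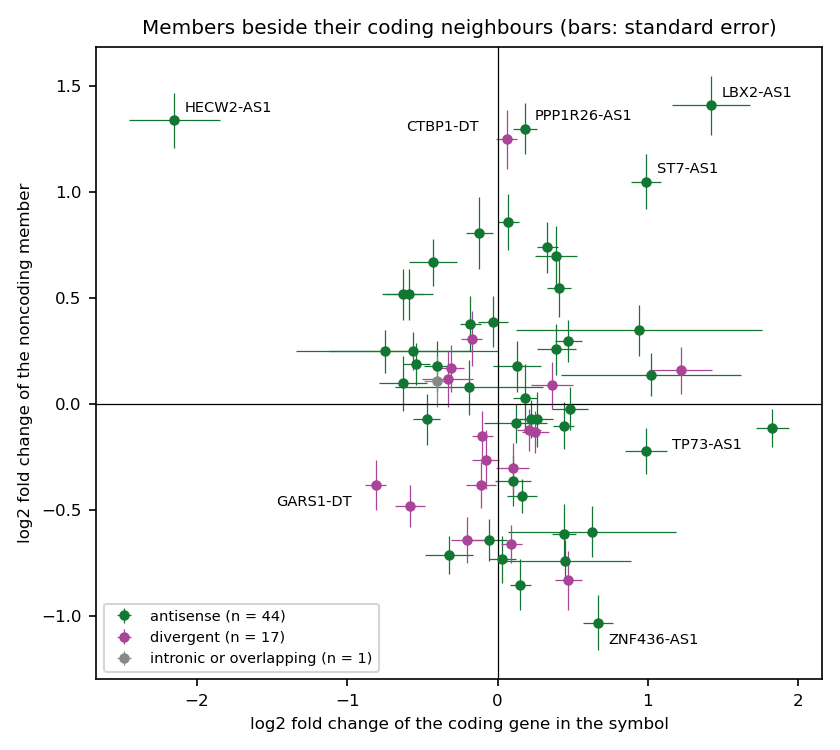
Log2 fold change of each noncoding member against that of the coding gene in its symbol for the 62 pairs in which both were tested, coloured by kind, with bars for the standard errors. HECW2-AS1 and ZNF436-AS1 lie in the quadrants of opposite sign, and LBX2-AS1 and ST7-AS1 in the quadrant where both rose.

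Genes of the proteins that bind or process such RNAs were counted beside all tested genes, of which 22.1% rose and 23.2% fell. Of 15 paraspeckle protein genes, 5 rose and 4 fell, with SFPQ from 327 ± 29.2 to 612 ± 28.1 normalized CPM (SD, n = 3 each; log2 fold change 0.90) among those that rose and TARDBP (-0.42) and RBM14 (-0.50) among those that fell, while NEAT1, on which these proteins assemble, was not called. Of 14 nuclear speckle genes, 4 rose, SRSF3 most (0.97), and 6 fell, PNN most (-0.69). Of 20 genes of nuclear RNA decay, which removes many short-lived noncoding RNAs, 2 rose (EXOSC10 and EXOSC6, 0.53 each) and 4 fell, ZFC3H1 most (-0.98, adjusted p = 1.60e-07). Of 14 tested subunits of Integrator, which ends noncoding transcription, 6 rose, INTS6 most (1.11), and 4 fell, INTS9 most (-0.53). Of 14 nonsense-mediated decay genes, 3 rose and 2 fell, of 8 tested genes of RNase P and MRP, 3 rose and none fell, and of 7 genes of the 7SK particle, 2 rose and 1 fell. Of 8 genes of the signal recognition particle and its receptor (SRPRA and SRPRB), none rose and 6 fell, both receptor genes among them. Their median log2 fold change was -0.40, and no RNA of this particle was a member. With lists of this size, counts such as those of the paraspeckle (33.3% and 26.7%) and nonsense-mediated decay genes (21.4% and 14.3%) lay near the share of all tested genes.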

How the data were processed

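Total RNA of K562 cells was sequenced in 3 control and 3 hyperoside libraries, made with a VAHTS Universal V6 kit. The submitters' processing notes name fastp, HISAT2, HTSeq and hg38, and the study's methods name DESeq. The use of strand, the annotation and any selection of RNA are not given in the sources used here. The authors deposited raw, unnormalized read counts per gene. A further table deposited by the authors holds FPKM values, the same counts divided by gene length and library total. Columns left without a sample numbered 0. All remaining columns, gene annotations apart, were not used here.

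Counts were compared in R 4.3.3 with edgeR 4.0.16 (filterByExpr with a minimum count of 10 and total of 15, TMM, quasi-likelihood test with group as the only term), with Benjamini-Hochberg adjustment over 15095 genes. A call needed an adjusted p under 0.05, and a DEG also a change of over 2-fold. Errors of fold changes are standard errors. Alternatives used DESeq2 1.42.0, limma 3.58.1 (voom, and log2(FPKM + 1) or log2(FPKM + 0.1)), other scalings, no filter, a replicate block, each library left out, and other rankings. The fit was tested on simulated data. Tables and plots were made in Python 3.11.15 with pandas 2.3.3, numpy 2.4.6, scipy 1.17.1 and matplotlib 3.10.9. A count of 0 would allow 3 counts, and such limits cover counting error only.

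The members and gene lists were chosen with earlier results of these data known. Named genes were the 10 highest members by CPM, the 10 most significant DEGs of each direction, up to 4 members of each role list, the last 2 members and the first 2 rows outside, and the coding gene in the symbol of each such member. Other genes were chosen after their values were seen. RefSeq positions, promoters and microRNAs are on GRCh38.p14, and exon overlaps come from GENCODE 29. Some genes that the rule or the lists name are not reported here.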

Additional observations from a re-analysis of the deposited data

How the results depend on the processing

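The counts of calls moved most with the ranking and the list size. With the control libraries alone, 10 members rose and 22 fell as DEGs and the median log2 fold change was -0.07. With FPKM the median was -0.04, and with the hyperoside libraries alone, an alternative added after the data had been seen, 4 fell as DEGs and the median was 0.23. The first 100 members gave 40 higher, 28 lower, 8 DEGs higher, 4 DEGs lower and a median of 0.12, and the first 400 gave 133, 111, 36, 29 and 0.06. The median was 0.13 with upper-quartile factors, 0.12 with log2(FPKM + 1) and 0.14 with log2(FPKM + 0.1), where 4 and 6 members fell as DEGs. The median of all tested genes shifted by at most 0.05. The difference in the members' share of counts ran from 0.0157 to 0.0834 percentage points over the libraries left out, lowest without control 1, and was 0.0285 with the control ranking. NEAT1 changed sign without control 1 (-0.05) and without hyperoside 1 (-0.02), in a range of -0.05 to 0.10 over the libraries left out. NORAD changed sign with upper-quartile factors (0.00), with log2(FPKM + 1) and log2(FPKM + 0.1) (0.02 each), and without control 3 (0.05) or hyperoside 3 (0.00), in a range of -0.15 to 0.05. The cause was not tested. Of 616 values of 44 named genes in 14 settings, 597 kept direction and call.

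Same-numbered libraries did not deviate together (correlations -0.081, -0.0327 and -0.0342). A pairing that left no shared deviation would look the same, so these values cannot show whether the numbers pair the samples. With the replicate block, 66 members were called higher and 53 lower, and 19 and 10 were DEGs. Depth was similar in all libraries, and with 3 libraries a group the median standard error of a member's log2 fold change was 0.11.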
